A study of Homo sapiens with 12 samples.

Results

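The IFIT, OAS and MX antiviral effectors were followed as 10 genes, namely IFIT1, IFIT2, IFIT3, IFIT5, OAS1, OAS2, OAS3, OASL, MX1 and MX2. They were taken from the tables by gene symbol, and they are 10 of the 15459 genes listed in both expression tables of the study. RNA was measured in HT1080 cells, a human fibrosarcoma line grown here as the wild type, after exposure to one of 2 agents used to alter protease activity at the cell surface. Phorbol 12-myristate 13-acetate (PMA) is a plant phorbol ester that activates protein kinase C, and concanavalin A (ConA) is a jack bean lectin that binds sugars of cell surface glycoproteins. All cells were first grown in medium depleted of biotin and then moved to low-serum medium, also depleted of biotin. There were 4 groups of 3 libraries: 40 nM PMA for 24 h, its untreated controls, 40 µg/mL ConA for 24 h, and its untreated controls, with control libraries numbered 1 to 3 for PMA and 4 to 6 for ConA. The labels give the controls as "Control" and name no vehicle. Every group is the same cell line, so no other genotype or cell type was compared.

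Cells that sense viral nucleic acid secrete interferon, which signals through receptor kinases to a complex of factors that includes STAT2 and IRF9, which binds a DNA element of repeated GAAA letters before many genes, the members of these families among them. IFIT proteins bind viral or foreign RNA and hinder its translation. OAS1, OAS2 and OAS3 make the messenger 2-5A when they meet double-stranded RNA, while OASL is a related protein without that synthetase activity. MX1 and MX2 are dynamin-like GTPases that trap viral nucleocapsids or capsids.

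The letters before these genes are shown because the element through which interferon factors act can be read in them. RefSeq promoter windows (GRCh38.p14) were matched for 6 of the 10 genes. IFIT2, OAS2, OASL and MX2 had no window in the table used. The 250 bases before each annotated start were searched on both strands for 2 copies of GAAA with 2 bases between them (the wide spacing) or 1 base between them (the narrow spacing), and the last 150 bases are printed with the matches in capitals, so that a match on the opposite strand reads TTTC. Where a gene had several windows, the one with most matches is printed.
IFIT1, chr10:89392473-89392622, plus strand: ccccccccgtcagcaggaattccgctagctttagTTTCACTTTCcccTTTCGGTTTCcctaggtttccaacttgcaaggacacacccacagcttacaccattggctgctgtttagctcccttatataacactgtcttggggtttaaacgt
IFIT3, chr10:89332379-89332528, plus strand: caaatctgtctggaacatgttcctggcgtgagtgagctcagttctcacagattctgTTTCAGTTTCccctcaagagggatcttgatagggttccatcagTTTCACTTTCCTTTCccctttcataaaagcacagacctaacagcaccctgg
IFIT5, chr10:89414418-89414567, plus strand: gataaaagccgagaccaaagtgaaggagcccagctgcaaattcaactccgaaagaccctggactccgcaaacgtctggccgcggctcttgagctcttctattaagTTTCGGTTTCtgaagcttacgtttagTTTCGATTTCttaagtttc
OAS1, chr12:112906812-112906961, plus strand: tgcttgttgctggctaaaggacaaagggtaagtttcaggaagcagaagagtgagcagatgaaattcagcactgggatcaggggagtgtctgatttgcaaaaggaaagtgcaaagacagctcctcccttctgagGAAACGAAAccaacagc
OAS3, chr12:112938324-112938473, plus strand: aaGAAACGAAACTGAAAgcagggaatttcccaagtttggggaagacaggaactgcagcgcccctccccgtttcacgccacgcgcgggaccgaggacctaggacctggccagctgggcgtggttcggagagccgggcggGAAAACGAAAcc
MX1, chr21:41426089-41426238, plus strand: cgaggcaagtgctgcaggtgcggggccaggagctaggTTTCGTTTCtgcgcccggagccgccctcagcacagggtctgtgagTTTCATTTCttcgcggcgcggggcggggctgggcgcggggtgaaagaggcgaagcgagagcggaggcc
All 6 genes with a window held at least 1 of the 2 spacings, in each of their 9 windows, against 5.48% of the 35116 promoter windows of the table. The wide spacing stood before IFIT1, IFIT3, IFIT5, OAS3 and MX1 (6 of the 9 windows, 3.02% of all windows). The narrow one stood before IFIT3, OAS1, OAS3 and MX1 (5 of the 9 windows, 2.69% of all windows). The wide match of MX1 lies in another of its 3 windows than the one printed. The capitals in the OAS3 window at its left end, and in the IFIT3 window at its right end, are 2 overlapping matches. IFIT5, whose transcript moved least under both agents, held 2 matches of the wide spacing, as did IFIT1. TTCNNNGAA, the letters of a STAT site, stood before OAS1 and MX1 (2 of the 9 windows, 6.57% of all windows). In MX1 it lay in the window that holds the wide match. TGANTCA, the letters of an AP-1 site, stood before MX1 (1 of the 9 windows, 6.57% of all windows). A match is a description of letters and not evidence of binding.

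Estimated depth ran from 33643098 to 45582983 reads per library, and every value of the 10 genes rested on 55.99 or more estimated reads. Each value is a normalized count per gene, not divided by gene length, so levels are compared between libraries and not between genes. The 10 mesenchymal markers checked (VIM and FN1 among them) were listed in both tables. They summed to 634400.0 to 649730.0 normalized counts without and 600470.0 to 624260.0 with PMA. In the ConA experiment they summed to 698150.0 to 800320.0 without and 539890.0 to 584730.0 with ConA. Single markers moved in opposite directions under these sums. With PMA, the mean of SPARC went from 63219 to 21957 and that of VIM from 195750 to 275220. No gene of an erythroid list of 6 was listed. All 14 genes of a T and NK cell list were listed in the PMA table, with a summed normalized count of 1731 to 2018 in the controls and 2550.5 to 3588 with PMA, while 3 of the 14 were listed in the ConA table, at 46.9 to 61.0 in the controls and 103 to 134 with ConA. Of a B cell list of 8, CD22 and CD79B were listed, with a sum of 386 to 490.5 without and 782 to 872 with PMA, and of 209 to 265 without and 418 to 431 with ConA, nearly all of it CD22. MS4A1 and CD79A of that list, and the monocyte marker CD14, were listed in neither table. A monocyte and dendritic cell list, mostly CD68, summed to 5306 to 5781 without and 7582 to 7813 with PMA, and to 6177 to 6605 without and 17614 to 20832 with ConA. An epithelial list, mostly KRT8 and KRT18, summed to 27765 to 29657 without and 15703 to 16337 with PMA. In the ConA experiment it summed to 39309 to 40874 without and 34698 to 37621 with ConA. The part of these marker genes in the results was not tested. In RNA from bulk cultures, fewer cells that express a gene and less of its RNA per cell cannot be told apart. The labels do not say whether libraries of a group are separate cultures, and p-values then measure only the spread between these samples.

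With PMA, 6 of the 10 genes fell and none rose. IFIT1 and MX2 fell most, followed by OAS1, OAS2, MX1 and IFIT2. IFIT3, OAS3 and OASL lay below the controls in every PMA library without passing the thresholds, and IFIT5 overlapped its controls. Calls required a shift of 1 or more on the log2 scale, in either direction, together with a limma adjusted p of 0.0001 or less. PMA called 8.65% of the 15153 genes tested, 4.61% as lower and 4.03% as higher. The median log2 fold change was -1.15 over the 10 genes and 0.0029 over all genes tested. The groups did not overlap for 9 of the 10, against 67.9% of all genes tested, 33.1% with PMA lower and 34.8% with PMA higher.

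Among the IFIT genes, IFIT1, which binds RNA whose cap lacks the methyl mark of host messages, stood at 1524, 1475 and 1337 normalized counts in the controls and at 224, 215 and 225 with PMA. All 3 PMA libraries lay far below all 3 controls and close to each other. IFIT1 fell by 2.70 on the log2 scale (SE 0.067, adjusted p = 4.15e-11), a control mean 6.53 times the PMA mean. For IFIT2, a partner of IFIT1 and IFIT3 in one complex, the controls were 674, 682 and 661 and the PMA libraries 329, 300.4 and 341. These groups were also apart, and IFIT2 fell by 1.06 (SE 0.069, adjusted p = 1.35e-07), just past the threshold on size. IFIT3, which stabilizes IFIT1, was at 1477, 1355 and 1266 in the controls and at 681, 721 and 694 with PMA. Its log2 fold change of -0.96 (SE 0.063, adjusted p = 1.27e-07) stopped just short of the threshold on size, and it was -1.02 (adjusted p = 2.47e-09) without control library 3, the lowest of the controls. IFIT5, which binds RNA ends without a partner, had control values of 833, 797 and 789 and PMA values of 807, 798 and 782. These interleaved, with a log2 fold change of -0.02 (95% interval -0.13 to 0.10, adjusted p = 0.77).

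**Figure D1:**
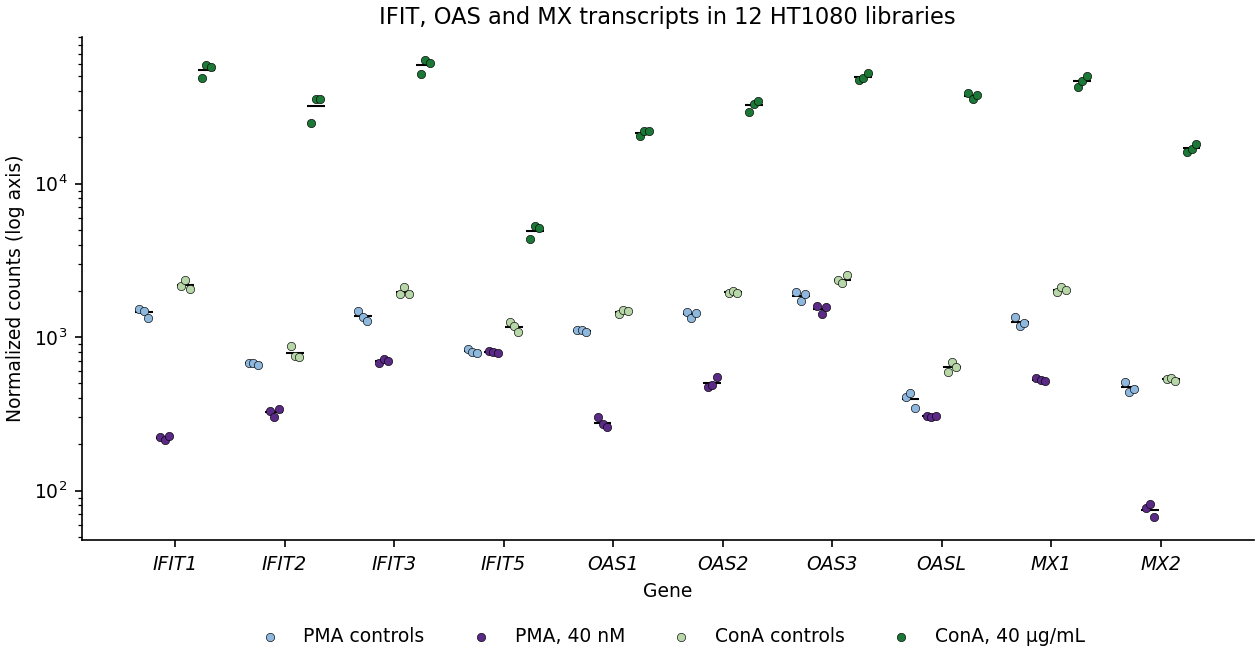
Normalized counts (log axis) of each gene in the 12 HT1080 libraries, 1 point per library and a bar at the mean of 3, for PMA (40 nM), ConA (40 µg/mL) and the controls of each. ConA points lie above every other point of the same gene, and PMA points lie below their controls except for IFIT5. The 2 tables were normalized separately.

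In the OAS family, the 2-5A synthetase OAS1 stood at 1105, 1115 and 1078 in the controls and at 301, 270.0 and 259 with PMA. The groups were far apart beside a spread of 19.4 (SD) in the controls and 21.8 with PMA, and OAS1 fell by 1.99 on the log2 scale (SE 0.069, adjusted p = 6.45e-10). For the synthetase OAS2, the controls were 1465, 1331 and 1442 and the PMA libraries 476, 489.5 and 551. It too showed no overlap, and fell by 1.48 (SE 0.068, adjusted p = 6.13e-09). OAS3, the largest of the synthetases, was at 1973, 1705 and 1910.2 in the controls and at 1602, 1417 and 1571 with PMA. Its PMA values lay below the lowest control by a narrow gap, and the log2 fold change of -0.28 (95% interval -0.43 to -0.14, adjusted p = 0.00265) did not pass. OASL, the member without synthetase activity, had controls of 409, 432 and 347 and PMA values of 306, 300.4 and 305. Here the PMA libraries were close together below more scattered controls, and the log2 fold change of -0.37 (95% interval -0.57 to -0.18, adjusted p = 0.00334) did not pass either.

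Both MX genes fell with PMA. MX1, which acts against influenza and many other viruses, stood at 1355, 1176 and 1229 in the controls and at 539, 523 and 517 with PMA. The highest PMA library was below the lowest control by more than the spread within either group, and MX1 fell by 1.25 on the log2 scale (SE 0.062, adjusted p = 1.32e-08). MX2, known for its action against HIV and herpesviruses, was at 513, 438 and 457 in the controls and at 76.6, 81.7 and 67.1 with PMA. Its control mean was 6.24 times its PMA mean, and MX2 fell by 2.63 (SE 0.11, adjusted p = 2.72e-09). Members of one family thus differed in size of change. The 95% intervals of IFIT1 (-2.85 to -2.55) and IFIT5 were far apart, as were those of OAS1 (-2.14 to -1.84) and OAS3 and those of MX2 (-2.87 to -2.39) and MX1 (-1.38 to -1.11).

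With ConA, all 10 genes rose. The rise ran from 4.24-fold for IFIT5 to 58.6-fold for OASL, in the ratio of the means, and the other 8 genes rose between 14.7-fold and 40.7-fold. ConA called 8.71% of the 15139 genes tested, 5.83% as higher and 2.88% as lower. The median log2 fold change was 4.58 over the 10 genes and -0.0022 over all genes tested. The groups did not overlap for any of the 10, against 69.3% of all genes tested, 34.9% with ConA higher and 34.4% with ConA lower. The 10 genes together took 0.0352% of all normalized counts of an untreated library here and 0.868% under the lectin. In the PMA experiment their share went from 0.0292% to 0.0131%.

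IFIT1 stood at 2144, 2359 and 2067 normalized counts in the ConA controls and at 48959, 59149 and 57584 with ConA. Every ConA library was far above every control, and the log2 fold change was 4.65 (SE 0.072, adjusted p = 8.96e-16). For IFIT2, the controls were 872, 752 and 739 and the ConA libraries 24938, 35442 and 35805. ConA library 1 was well below the other two, the widest spread of the 10 genes (19.2% of the mean), and IFIT2 still rose by 5.33 (SE 0.11, adjusted p = 2.63e-14). IFIT3 was at 1894, 2104 and 1921 in the controls and at 51979, 64210.5 and 61359 with ConA. It rose by 4.90 on the log2 scale (SE 0.073, adjusted p = 5.75e-16), again with library 1 lowest. IFIT5 had controls of 1244, 1176 and 1076 and ConA values of 4337, 5331 and 5139. The groups were apart but closer than for any other member, and IFIT5 rose by 2.08 (SE 0.078, adjusted p = 2.33e-11).

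OAS1 stood at 1414, 1492 and 1471 in the controls and at 20387, 21903 and 22139 with ConA. These replicates were tight in both groups, and OAS1 rose by 3.88 on the log2 scale (SE 0.053, adjusted p = 2.65e-16). For OAS2, the controls were 1939, 2002 and 1947 and the ConA libraries 29053, 33132 and 34622. OAS2 rose by 4.03 (SE 0.063, adjusted p = 8.96e-16), with no overlap. OAS3, which did not pass with PMA, was at 2338, 2240.2 and 2523 in the controls and at 47379, 48933 and 52528 with ConA. It rose by 4.39 (SE 0.059, adjusted p = 2.33e-16), with a fold between those of OAS2 and OASL. OASL went from 595, 683 and 635 in the controls to 38657, 35751 and 37637 with ConA. Its rise of 5.87 (SE 0.060, adjusted p = 2.43e-17) was the 25th largest of the 15139 genes tested. In OASL, ConA library 1 was the highest of the 3, whereas it was the lowest for the other 9 genes.

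MX1 stood at 1978, 2118 and 2024 in the controls and at 42416, 46691 and 50249 with ConA, with library 1 again lowest and all 3 far above the controls. It rose by 4.51 on the log2 scale (SE 0.062, adjusted p = 2.87e-16). MX2 was at 536, 537 and 518 in the controls and at 16177, 16724 and 18045 with ConA. The controls were close to each other, and MX2 rose by 5.00 (SE 0.056, adjusted p = 6.3e-17). By the 95% intervals, the rise of OASL (5.74 to 6.00) lay above those of the other 9 genes and the rise of IFIT5 (1.91 to 2.25) below them, while those of IFIT2 (5.09 to 5.57) and MX2 (4.88 to 5.12) overlapped, as did those of MX2 and IFIT3 (4.75 to 5.06).

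**Figure D2:**
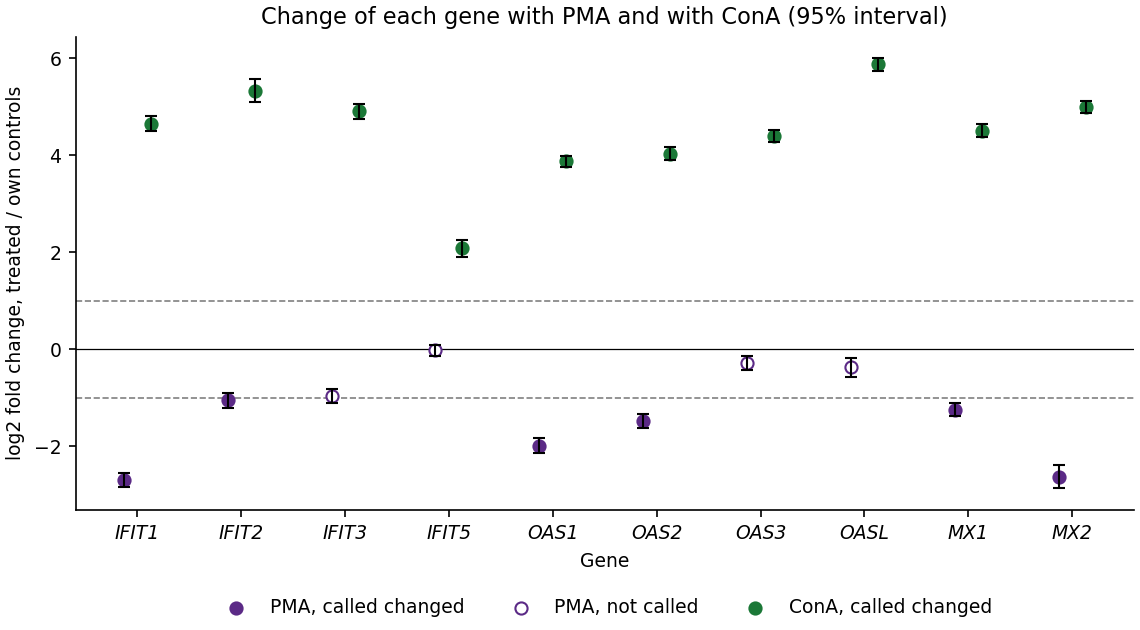
Fitted log2 fold change of each gene, treated against the controls of the same table, with 95% intervals. Filled points were called changed, open points were not, and dashed lines mark -1 and 1. All 10 ConA points are filled, from 2.08 to 5.87, and 6 PMA points are filled, from -2.70 to -1.06.

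The study set both agents against untreated cells, and the 2 responses were then compared gene by gene by subtracting the ConA response from the PMA response. This difference was called lower for all 10 genes, against 6.89% of the 15030 genes tested, with 3.67% called higher and 10.6% in either direction. It was largest for MX2, at -7.63 on the log2 scale (95% interval -7.86 to -7.39, limma adjusted p = 1.23e-18), the 5th lowest of all genes tested, followed by IFIT1 at -7.35 (-7.56 to -7.14, adjusted p = 9.01e-19). It was smallest for IFIT5, at -2.10 (-2.31 to -1.89, adjusted p = 8.52e-12), where the ConA rise made up the difference. The median was -5.87 over the 10 genes and -0.0103 over all genes. Being called lower with PMA and higher with ConA was uncommon, at 37 of the 14661 genes tested in both experiments (0.252%), and 6 of those 37 were IFIT1, IFIT2, OAS1, OAS2, MX1 and MX2. The size of the fall gave little guide to the size of the rise. OASL rose most and fell by 0.37 without passing, whereas IFIT1 fell most and its rise was the 5th largest of the 10. Over the 10 genes, Pearson's r between the fold changes was -0.226 and Spearman's rho -0.103, as a description of genes that share libraries. Each agent was run in its own experiment, so that agent and experiment cannot be told apart.

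**Figure D3:**
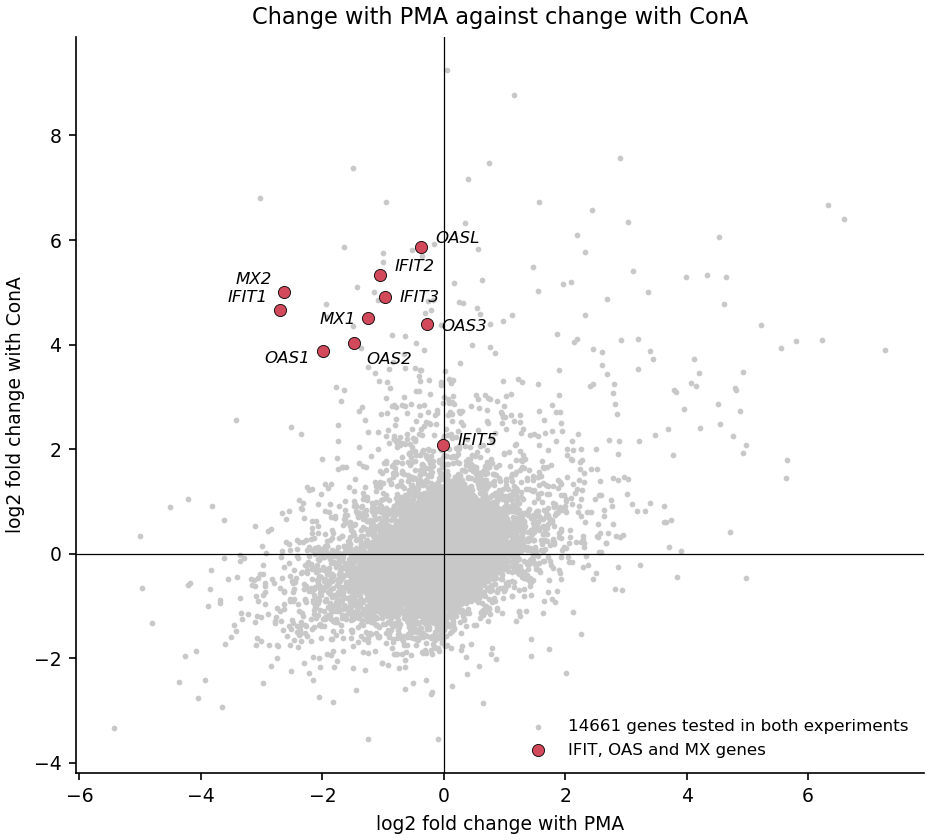
Log2 fold change with PMA (x axis) and with ConA (y axis) for the 14661 genes tested in both experiments (grey) and the 10 genes (red, named). The named genes other than IFIT5 lie at 3.88 or higher on the y axis and left of 0 on the x axis, and IFIT5 lies near 0 on the x axis at 2.08 on the y axis.

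The levels of the 4 groups could be put in one order for 9 of the 10 genes, with PMA lowest, then the PMA controls, the ConA controls and ConA, none of these neighbours overlapping. For IFIT5, PMA and its controls overlapped, and the ConA controls and ConA followed in the same order. The share of all genes in this order is not given here. Taken alone, PMA lay below its controls without overlap for 33.1% of genes tested, and ConA above its controls for 34.9%. The tables were normalized separately, so the step between the control groups is also a step between tables. The mean of the ConA controls was 1.13 (MX2) to 1.63 (MX1) times that of the PMA controls, with a median of 1.42 over the 10 genes. Over all 14661 genes the median of this ratio was 1.13, with quartiles at 0.977 and 1.31, and the control groups did not overlap for 63.6% of genes, 50.6% with the ConA controls higher and 13% with them lower. Summed over the 10 genes, the normalized counts went from 10783 ± 473 to 5257 ± 122 under PMA and from 15113 ± 304 to 355552 ± 27360 under ConA (SD, n = 3 each).

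Ratios within a library do not depend on the scaling of that library and show how the makeup of each family moved. IFIT1 over IFIT3, 2 proteins that work as a pair, went from 1.059 ± 0.0284 to 0.317 ± 0.0167 with PMA and from 1.109 ± 0.0298 to 0.934 ± 0.0111 with ConA. Thus PMA lowered IFIT1 far more than IFIT3. With ConA the ratio moved less, though all 3 libraries lay below their controls. IFIT2 over IFIT3 was 0.401 ± 0.0533 in the ConA controls and 0.538 ± 0.0532 with ConA, where all 3 libraries lay above their controls. The PMA controls were at 0.494 ± 0.0339 and PMA at 0.463 ± 0.0409, and these values overlapped. IFIT1 over IFIT5 went from 1.791 ± 0.0845 to 0.278 ± 0.0094 with PMA and from 1.883 ± 0.146 to 11.2 ± 0.0968 with ConA, opposite shifts of the same ratio.

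Within the OAS family, OAS1 over OAS3 went from 0.593 ± 0.0529 to 0.181 ± 0.0142 with PMA and from 0.618 ± 0.0431 to 0.433 ± 0.0133 with ConA. OAS2 over OAS3 went from 0.759 ± 0.0193 to 0.331 ± 0.0295 with PMA and from 0.832 ± 0.061 to 0.650 ± 0.0329 with ConA. Both ratios were thus lower under each agent than in its controls, and OAS3 gained on the other synthetases in both experiments. OASL over OAS3 showed another pattern, at 0.214 ± 0.0364 and 0.199 ± 0.0111 in the PMA experiment, where the values overlapped, and at 0.270 ± 0.03 and 0.754 ± 0.0538 in the ConA experiment. MX2 over MX1 went in opposite directions, from 0.374 ± 0.0035 to 0.143 ± 0.0134 with PMA and from 0.260 ± 0.00931 to 0.366 ± 0.0131 with ConA. All are mean ± SD of 3 libraries, and none was tested.

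**Figure D4:**
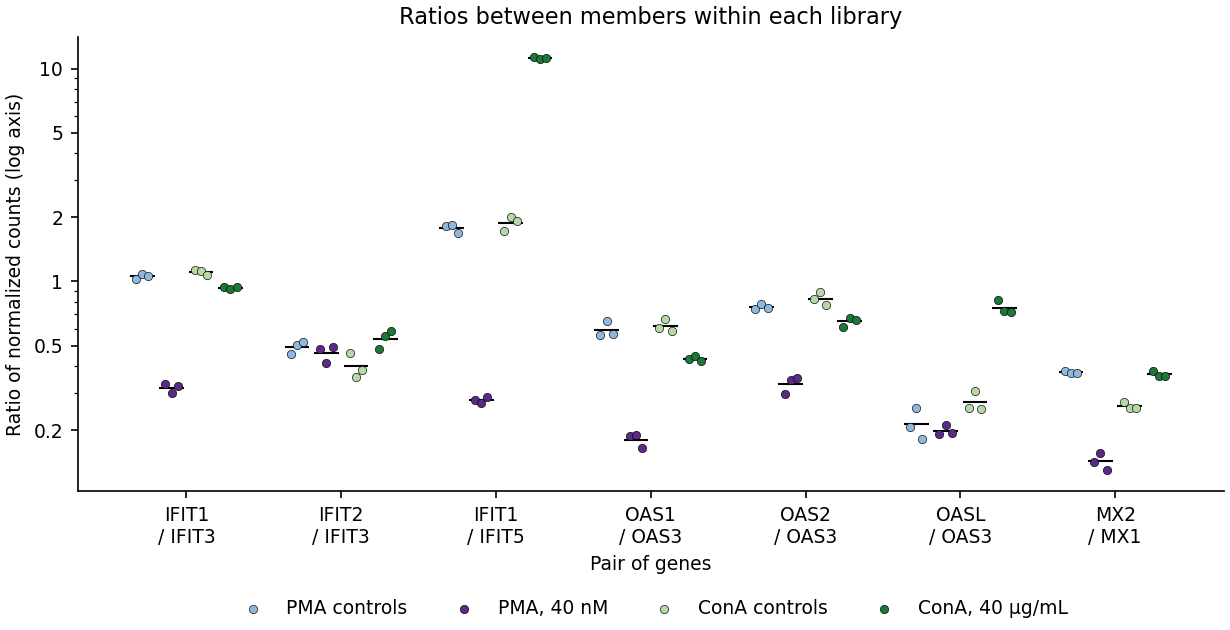
Ratio of normalized counts of 2 genes within each library (log axis), 1 point per library and a bar at the mean of 3, by group. IFIT1 over IFIT5 is spread most, from about 0.278 with PMA to 11.2 with ConA, and IFIT2 over IFIT3 least. Ratios are not corrected for gene length, so only their shifts between groups can be read.

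The rest of the interferon pathway was described by 7 lists of 66 genes in all outside the 10. With PMA, 2 of the 55 tested were higher and 9 lower, beside 4.03% and 4.61% of all genes tested. With ConA 37 of the 56 tested were higher and 0 lower, beside 5.83% and 2.88% of all genes tested. The 2 genes higher with PMA are thus a share near that of all genes. Among ligands, IFNL1, a type III interferon, was listed in the ConA table at 0, 3.00 and 2.00 normalized counts in the controls and at 36.0, 39.7 and 40.4 with ConA (adjusted p = 6.69e-06), all 3 ConA libraries above the controls. The call of IFNL1 was lost without ConA library 2 or 3 (adjusted p up to 0.000128) and without the variance trend (0.000856). IFNB1, the main interferon of fibroblasts, was at 0, 1.00 and 2.00 in the controls and at 8.01, 11.5 and 2.70 with ConA, too low to be tested. IFNE was tested in both tables and not called, at 0.52 with PMA (adjusted p = 0.114) and -1.36 with ConA (adjusted p = 0.00974) on the log2 scale. IFNG, in the PMA table alone, was at 0.922, 2.68 and 2.71 in the controls and at 5.80, 8.56 and 14.4 with PMA, and was too low to be tested.

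Of the receptors and kinases, 1 of 8 tested rose with each agent and none fell. IFNAR2, a chain of the type I interferon receptor, rose by 1.15 with ConA (adjusted p = 2.15e-09) and stood at 0.94 with PMA, below the threshold on size. IFNGR2, a chain of the interferon gamma receptor, rose by 1.10 with PMA (adjusted p = 8.14e-08, or 0.000187 and not called without the variance trend) and stood at 0.83 with ConA. Among the STAT and IRF factors, 3 of 5 tested rose with ConA and none of 6 was called with PMA. STAT2 rose from 2262 ± 22.8 to 8954 ± 387 (SD, n = 3) with ConA, a log2 fold change of 1.98. With PMA, the log2 fold changes were -0.24 for STAT2 (adjusted p = 0.000794) and -0.39 for IRF9 (adjusted p = 1.76e-05), both short of the threshold on size. IRF9 stood at 0.82 with ConA (adjusted p = 7.22e-09). IRF1 was at -0.45 and IRF7 at -0.41 with PMA, neither called.

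Among nucleic acid sensors and adaptors, 6 of 8 tested rose with ConA, and with PMA 1 of 7 rose and 1 fell. IFIH1, the sensor of long double-stranded RNA, rose by 4.17 with ConA, and ZBP1, a sensor of Z-form nucleic acid, went from 1.01 ± 0.0236 to 356 ± 37.4 normalized counts. TLR3, the endosomal RNA sensor, fell by 1.74 with PMA (adjusted p = 8.65e-08), while CGAS, which senses DNA in the cytosol, rose by 1.20 (adjusted p = 7.52e-07). Of 5 feedback inhibitors, USP18, a brake on the type I receptor, rose by 4.86 with ConA and fell by 1.09 with PMA (adjusted p = 2.01e-06), and it was the 1 gene of the list called in each experiment. SOCS1 stood at 0.69 with ConA and -0.58 with PMA, not called.

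Of the partners of the 2-5A system, none was called with either agent. PDE12, which degrades 2-5A, stood at 0.45 with ConA (adjusted p = 6.58e-06) and 0.11 with PMA (adjusted p = 0.11). ABCE1, which also recycles ribosomes, stood at -0.16 with ConA (adjusted p = 0.0269) and 0.36 with PMA (adjusted p = 8.5e-06). The other antiviral effectors, a list of 25, rose in all 25 with ConA (median log2 fold change 3.50) and fell in 7 with PMA (median -0.69), the other 18 not called. Among these 18, ISG20 (0.57), IFI44 (0.32), SAMD9 (0.025) and TRIM5 (0.0063) lay on the other side of 0 from that median. The PMA call of HERC5 (-1.006) held in only 1 of 6 fits without 1 library. Those of ISG15 and RSAD2 were lost without the variance trend, and the ConA call of APOBEC3G (1.01) was lost without control library 6. RSAD2, which encodes viperin, rose by 7.38 with ConA, and IFI44L by 6.79. IFI44L fell by 3.02 with PMA (adjusted p = 1.47e-05) at low counts, 45.7 ± 9.34 to 4.88 ± 1.76, a call lost without control library 1 (-2.74 to -3.17 over the libraries left out, adjusted p up to 0.000338) and without the variance trend (0.000362). XAF1 fell by 1.93 with PMA (adjusted p = 4.66e-08).

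**Figure D5:**
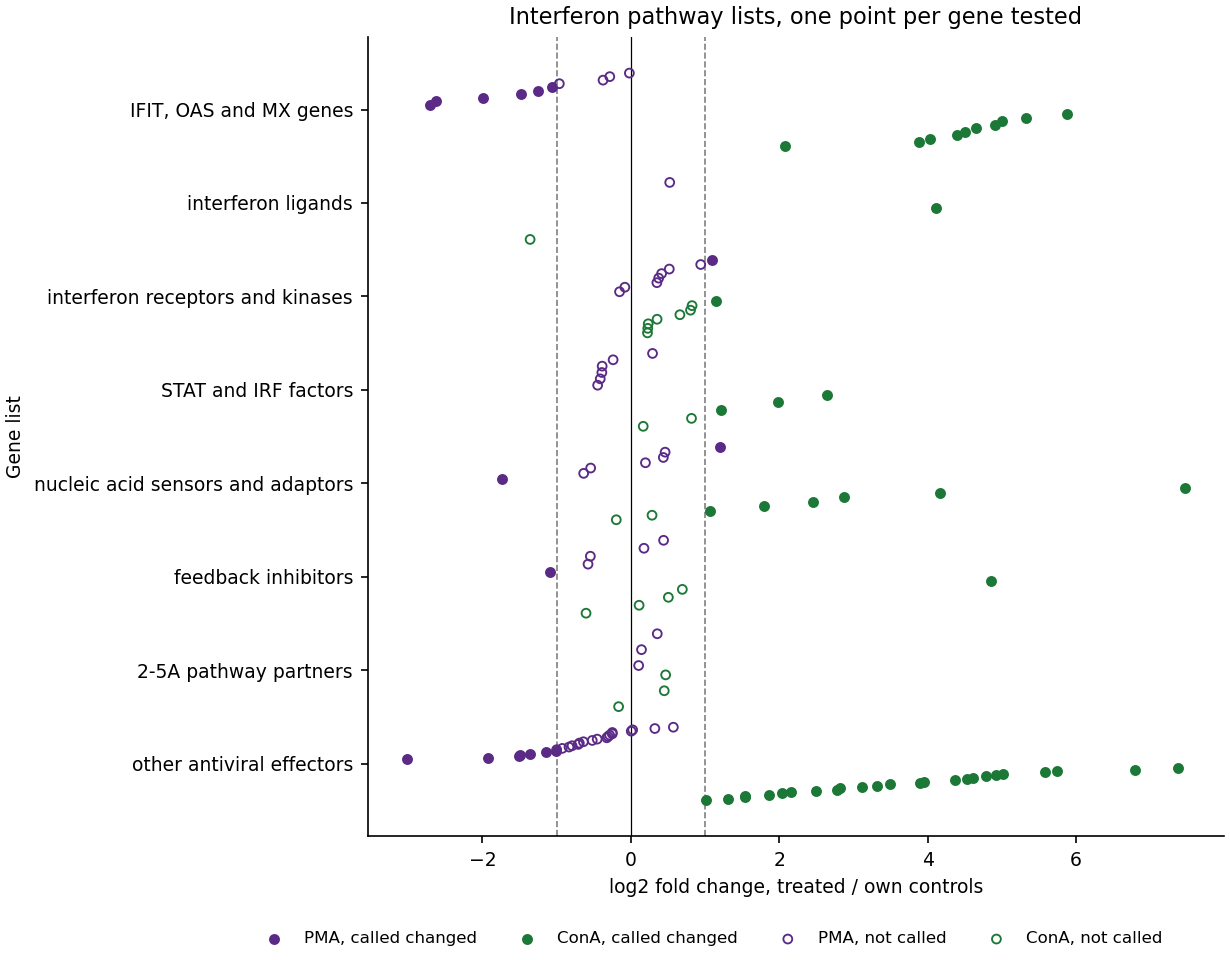
Log2 fold change of every tested gene of the IFIT, OAS and MX group and of 7 interferon pathway lists, PMA in purple and ConA in green, filled where called. The 25 other antiviral effectors all lie above 1 with ConA, and the 2-5A partners lie between the dashed lines at -1 and 1 under both agents. Height within a row only separates points. The ConA points of IFNL1 (the filled ligand) and ZBP1 (the rightmost sensor) rest on controls of 3.00 counts or fewer, so their position depends on the added pseudocount of 1.

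Among 14651 genes tested in both experiments, the 10 whose pattern was most like the mean of the IFIT, OAS and MX genes were APOL1, GOLM1, APOL3, APOL2, LGALS9, C1R, USP18, HERC6, AIM2 and TRIM14, with Pearson's r of 0.9985 to 0.9997 over 12 libraries. The measure was the log2 level minus the mean of the controls of its own table, so both control groups are centred on 0 and r mostly describes the 2 steps to PMA and to ConA. In all, 105 genes had an r over 0.99. LGALS9, which encodes galectin-9, stood at -1.65 with PMA and 5.88 with ConA, both called, though the PMA call was lost without any 1 of 4 libraries (PMA 1 or 2, control 1 or 2; adjusted p up to 0.000402) and without the variance trend (0.00054), while GOLM1, a Golgi membrane protein, had the same shape at smaller size, -0.53 (not called) and 1.76. Within the 10 genes, r with the mean of the other 9 was lowest for IFIT5, at 0.968, and highest for MX1, at 0.9998.

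The IFIT genes lie side by side on chromosome 10, OAS1, OAS3 and OAS2 on chromosome 12 with OASL further along it, and MX2 and MX1 on chromosome 21. Of 17 neighbouring protein-coding genes, 10 were tested with each agent. With PMA, 2 of the 10 were called lower and 0 higher, against 4.61% and 4.03% of all genes tested. They were LIPA at -1.63 (adjusted p = 1.04e-10) and PANK1 at -1.004 (adjusted p = 8.14e-05). The call of PANK1 was lost without any 1 of the 6 libraries (-1.13 to -0.84). With ConA, 2 of the 10 were called (8.71% of all genes), RIPK4 higher at 1.68 and DTX1 lower at -2.23. The other 8 neighbours tested with each agent were not called. LIPA, which encodes lysosomal acid lipase and stood at 0.60 with ConA, overlaps all 4 IFIT genes in RefSeq. The sources used here do not say whether counting used strand. It is therefore not known whether reads of LIPA and of the IFIT genes were kept apart where these genes overlap. LIPA fell from 3103 ± 123 to 1003 ± 11.1 normalized counts with PMA.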

How the data were processed

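RNA was extracted with an RNeasy kit, and poly(A) RNA was sequenced by a service provider. The authors deposited normalized counts per gene symbol, a signal scaled by 1 factor per library, in 2 tables normalized separately. Per the submitters' notes the tools were Partek, Bowtie2, STAR and DESeq2 and the builds hg19 and mm10, with roles and versions not given in the sources used here. Each table lists genes with at least 10 estimated reads in some library. Whole reads could be recovered for 80.0% to 82.5% of low values (5 to 60, tolerance 0.02 reads), too few for a count test.

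Values were tested as log2(value + 1) with limma 3.58.1 (R 4.3.3, variance trend) for genes with a mean of at least 10, with Benjamini-Hochberg adjustment over all genes and the thresholds printed in a figure of the study. Fold changes are on that log2 scale. An exact permutation test of 3 against 3 cannot go below p = 0.1 (two-sided). The difference was fitted over 12 libraries with 4 group means. Squared differences between replicate libraries averaged 3.53 to 16.4 times the variance of counting alone (medians 0.98 to 2.54). Counting alone would give 1 for the average, but not for the median. No 2 libraries were therefore merged, which does not show that they are separate cultures. Calls of other named genes were also recomputed without each library and without the variance trend, chosen after seeing the data. The script was tested on simulated data. Members and lists were chosen with earlier results of these data known. All 10 members were named, with the 2 tested genes of largest change in each pathway list and experiment, the listed ligands, the 2-5A partners, STAT2, IRF9 and the 10 genes most similar in pattern, except that some results are not reported here. Strand of counting and the genome annotation are not given in the sources used here.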

Additional observations from a re-analysis of the deposited data

Results flagged for a closer look

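The change with PMA and the change with ConA, each against its own controls, differed in all 10 genes by the test of the difference itself (limma over 12 libraries). On the log2 scale the PMA response minus the ConA response was -7.35 for IFIT1, -6.38 for IFIT2, -5.86 for IFIT3 and -2.10 for IFIT5. It was -5.87 for OAS1, -5.52 for OAS2, -4.67 for OAS3 and -6.24 for OASL. For the MX genes it was -5.75 for MX1 and -7.63 for MX2. The adjusted p was at most 8.52e-12, that of IFIT5. Of the 15030 genes tested, 6.89% were called lower by the same test and 10.6% in either direction. All 3 PMA libraries were below their controls for 9 of the 10 genes, against 33.1% of all genes tested. All 3 ConA libraries were above theirs for all 10, against 34.9% of all genes tested.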

How the results depend on the processing

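The number of the 10 genes called was 6 to 7 with PMA over 16 alternatives, and 10 with ConA and for the difference between the agents in each of the 15 and 20 alternatives run. Of 510 single gene values, 507 kept their direction and their side of the thresholds. IFIT3 passed with PMA under quantile normalization (-1.01, adjusted p = 1.6e-07) and without control library 3 (-1.02, adjusted p = 2.47e-09), as its value lies next to the threshold on size. IFIT5 with PMA ranged from -0.0345 to 0.00501 when 1 library was left out, changing sign without control library 1 (adjusted p = 0.95). Leaving out 1 library at a time gave 6 to 7 genes with PMA, 10 to 10 with ConA and 10 to 10 for the difference. Without the variance trend, the genes called over the whole table fell to 867 from 1310 with PMA and to 662 from 1318 with ConA, and members called stayed at 6 and 10 in number. With the replicate block for PMA, 6 members were called, all lower, and 1264 genes in all. Labels share the numbers 1 to 3 there, but libraries of the same number deviated together with r of only -0.0636 to 0.0964. For ConA, no paired analysis was possible because treated libraries are numbered 1 to 3 and controls 4 to 6. With 3 libraries per group, a call next to the threshold on size, such as that of IFIT3 with PMA, depends on the setting. The smaller changes of OAS3 and OASL with PMA reached at most -0.37 and -0.47 and were not called in any of the 16 alternatives. Without gene lengths, levels of different genes cannot be compared.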
